A study of Mus musculus with 6 samples.

Results

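Cadherins and protocadherins were described in cells isolated from the mouse hippocampus and measured on 6 expression arrays. The members are the genes whose symbol is Cdh or Pcdh with a number, other than the endothelial Cdh5, and that have a probe set of the array annotation carrying that 1 symbol. There were 55 such genes, 20 cadherins and 35 protocadherins, among 18193 genes with a single-symbol probe set. They had 99 probe sets, and each gene was represented by the probe set with the highest mean over the 6 arrays. The 55 divide into 5 type I classical cadherins, 10 type II classical cadherins, 5 other cadherins, 4 delta-1, 5 delta-2 and 3 other non-clustered protocadherins, 22 beta protocadherins and 1 gamma protocadherin.

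The groups were 2 transgenic and 2 control mice, with 3 arrays each. The transgenic mice are described by the series as overexpressors of HuD, the neuronal RNA-binding protein encoded by Elavl4, and the control mice are given no further description. By the descriptions, 1 array came from mouse 1 and 2 arrays from mouse 2 in both groups, although the titles number the 2 arrays of control mouse 2 as controls 1 and 2. The cells, labelled DGCs, are taken to be dentate granule cells, and the titles of 3 arrays (transgenic mouse 1, the first array of transgenic mouse 2 and control mouse 1) carry the tag re-LCM. The sources used here do not give strain, age, sex or the promoter driving the transgene. Values below are listed as transgenic mouse 1, then the first and second array of transgenic mouse 2, then control mouse 1 and the first and second array of control mouse 2.

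Cadherins are calcium-dependent adhesion proteins that bind partners on the neighbouring cell through their extracellular cadherin repeats. Classical cadherins of type I and type II hold their tails to the actin cytoskeleton through beta- and alpha-catenin, and in the brain they help match axons to their targets. Protocadherins lack the catenin-binding tail. The clustered alpha, beta and gamma protocadherins are expressed in different combinations by single neurons and serve self-recognition of neurites, while the delta protocadherins are expressed by region and circuit.

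The deposited values are intensities on a linear scale, which were raised to a floor of 10.1 where lower and then put on the log2 scale. Genes were tested with limma on mouse means where their mean log2 value over the arrays was above 4.92, the median of all probe sets. Of the 55 members 30 passed this filter and 25 did not. An intensity depends on the probes as well as on the transcript, so levels of different genes are not set against each other. The granule cell markers Prox1, a transcription factor, and Calb1, the calcium buffer calbindin, read 497 to 651 and 6736 to 7444 over the 6 arrays, and all 8 listed granule cell markers passed the filter. The 3 Elavl4 probe sets overlapped between groups, with log2 differences, transgenic minus control, of -0.33, -0.15 and -0.73. Their match to the transgene's own transcript is unknown here, so they do not check the labels. Fewer cells of a type and less RNA per cell cannot be told apart in such samples. The tests rest on 2 mice a group, whose litters the sources used here do not give, and the number of arrays limits the precision.

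Promoter windows were in the RefSeq table (build GRCm38.p6) for 20 of the 55 members, with the chromosome of the beta cluster not used, and 4 are shown because the results turn on these genes. Cdh22 and Pcdh7 are the members with a shown window whose transgenic and control arrays did not overlap, Pcdh8 was bright on every array, and Cdh18 was under the floor on every array. Each window is 300 bases around the start of the gene, most of them upstream, 5′ to 3′ on the strand of the gene, and capitals mark CG pairs.
Cdh22 (chr2:165234688-165234987, minus strand, 38 CG pairs): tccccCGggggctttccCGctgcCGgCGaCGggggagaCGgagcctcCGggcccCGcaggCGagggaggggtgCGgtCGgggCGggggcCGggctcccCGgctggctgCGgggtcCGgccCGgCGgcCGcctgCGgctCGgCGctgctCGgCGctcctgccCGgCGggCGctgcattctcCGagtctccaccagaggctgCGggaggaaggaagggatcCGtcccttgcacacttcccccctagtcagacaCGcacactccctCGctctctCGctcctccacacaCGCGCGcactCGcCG
Pcdh7 (chr5:57717831-57718130, plus strand, 11 CG pairs): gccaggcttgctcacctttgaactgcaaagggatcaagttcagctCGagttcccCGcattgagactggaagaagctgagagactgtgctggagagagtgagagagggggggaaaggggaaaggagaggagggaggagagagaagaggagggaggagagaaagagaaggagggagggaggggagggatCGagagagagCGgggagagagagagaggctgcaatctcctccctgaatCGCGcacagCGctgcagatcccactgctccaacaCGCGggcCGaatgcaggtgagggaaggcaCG
Pcdh8 (chr14:79771263-79771562, minus strand, 14 CG pairs): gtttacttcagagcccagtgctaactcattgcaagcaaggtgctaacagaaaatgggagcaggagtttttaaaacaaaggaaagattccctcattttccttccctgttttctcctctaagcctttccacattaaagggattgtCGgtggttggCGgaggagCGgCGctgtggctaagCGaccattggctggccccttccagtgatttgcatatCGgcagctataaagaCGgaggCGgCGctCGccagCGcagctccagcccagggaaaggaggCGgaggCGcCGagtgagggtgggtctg
Cdh18 (chr15:23036213-23036512, plus strand, 12 CG pairs): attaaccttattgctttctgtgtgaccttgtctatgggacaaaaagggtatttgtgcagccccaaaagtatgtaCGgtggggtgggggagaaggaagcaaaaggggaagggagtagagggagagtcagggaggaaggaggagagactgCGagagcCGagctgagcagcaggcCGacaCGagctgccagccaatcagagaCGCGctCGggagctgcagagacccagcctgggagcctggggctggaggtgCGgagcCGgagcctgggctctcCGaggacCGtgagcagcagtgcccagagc
The motif counted was CG, which reads the same on both strands. The Cdh22 window is dense in it, as only 4.95% of the 32851 windows hold as many, against 41.4% for Pcdh7, 36.3% for Pcdh8 and 39.6% for Cdh18. The 13 members that passed the filter and have a window held a median of 18 CG pairs (range 2 to 38), and the 7 that did not pass held a median of 8 (range 4 to 23), where the median of all windows was 7. Where a member had several windows the one richest in CG was taken. The median of all windows counted every window of every gene, so it is not on the same rule. The ranges of the measured and the dim members overlap, and the counts are a description of the windows only.

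No cadherin or protocadherin passed the test between transgenic and control mice. With limma and Benjamini-Hochberg adjustment, 0 of the 30 tested members and 0 of 14678 tested genes (0%) were called, with the smallest adjusted p at 0.999. At an unadjusted p under 0.05 there were 3 members, Cdh22, Pcdhb10 and Pcdhb15, all lower in the transgenic mice, against 4.31% of all genes tested. The 3 transgenic and the 3 control arrays did not overlap for 3 of the 30 members, Cdh22, Pcdh7 and Pcdhb15, all lower in transgenic arrays, against 8.07% of all genes (4.22% lower and 3.86% higher). All 3 of these differed by at least 0.5 log2 units, which 3.02% of all genes did without overlap. Cdh22 and Pcdh7 had transgenic means under the filter value of 4.92 and passed it only through their control values, as did Cdh7, so this count and its direction support nothing about the members.

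Of the 30 tested members, 21 had a lower and 9 a higher mean in the transgenic mice, with a median log2 difference of -0.11, where 49.5% of all genes tested were lower, 50.5% were higher and the median was 0.0026. The range of the members ran from -1.21 (Cdh22) to 0.15 (Pcdhb12). Beta protocadherins had 6 lower and 6 higher (median -0.044), and the other 18 members had 15 lower and 3 higher (median -0.11). The 15 include Cdh22, Pcdh7 and Cdh7, which passed the filter only through their control values. The filter thus favoured lower readings in these counts, and their direction supports nothing about the members. Of the 25 members below the filter, 12 had a lower and 10 a higher transgenic mean, and 3 were equal. Without control mouse 1 the beta genes had 9 lower and 3 higher (median -0.081) and the other 18 had 11 lower and 7 higher (median -0.027). The difference between these families was not tested, and its direction turned with that mouse. The direction also turned in other alternatives. Among them, the medians without transgenic mouse 1 were -0.15 (beta) and -0.081 (others). Without the second array of control mouse 2 they were -0.079 (beta) and -0.059 (others). Within the arrays that carry the re-LCM tag the median over the 30 members was -0.21, and within those that do not it was 0.026, with 14 lower and 16 higher. With the tag as a term in the fit there were 22 lower and 8 higher, with a median of -0.067. The tagged arrays hold 1 control array, from control mouse 1, and the untagged arrays hold 1 transgenic array, so tag and mouse cannot be told apart within them. A leave-out moved the difference of 28 of the 30 members by over 1.5 times, with Cdh22 and Pcdhb15 the exceptions, and 8 of the 30 kept 1 direction in every alternative.

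**Figure D1:**
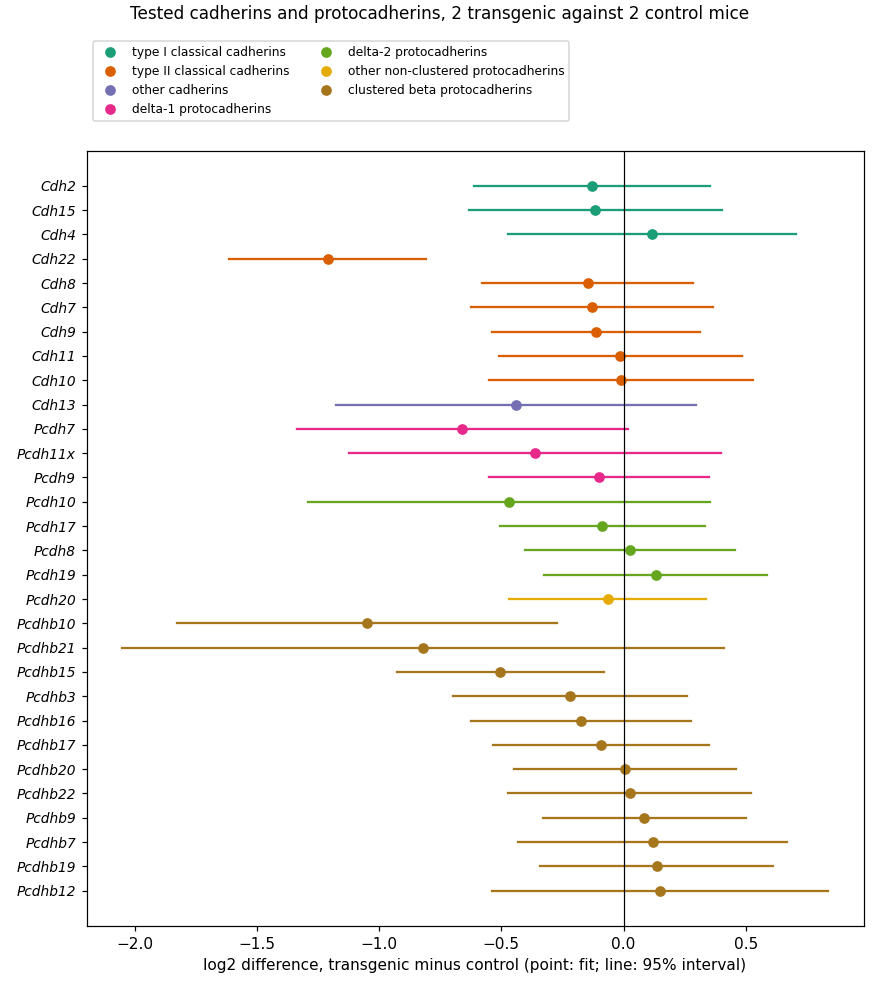
Log2 difference, transgenic minus control, of the 30 tested members, grouped by family (colour). Points are the fitted difference over 2 against 2 mice and lines its 95% interval, and 27 of the 30 intervals span 0, with Cdh22, Pcdhb10 and Pcdhb15 the exceptions before adjustment.

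Among the type I classical cadherins, a group known for the histidine-alanine-valine adhesion motif, 3 of 5 were measured. Cdh2, or N-cadherin, the main classical cadherin of excitatory synapses, read 662, 833 and 825 in transgenic and 803, 804 and 834 in control arrays. The groups overlapped, with transgenic mouse 1 the lowest array, and the log2 difference was -0.13 (95% interval -0.61 to 0.35). Without transgenic mouse 1 it was 0.032. A second Cdh2 probe set had intensities of 101 to 119 in transgenic and 111 to 166 in control arrays. Cdh4, or R-cadherin, differed by 0.12 (SE 0.22) and Cdh15, the M-cadherin of muscle and cerebellum, by -0.12 (SE 0.20). Leave-outs ran from -0.12 to 0.35 for Cdh4 and from -0.29 to 0.061 for Cdh15, so neither kept 1 direction. For Cdh4 the second passing probe set gave a difference of -1.001, opposite to the first, with 72.0 on the array of control mouse 1 against 19.7 to 41.5 on the other arrays. The dim members were Cdh1, the epithelial E-cadherin, and Cdh3, the placental P-cadherin, whose highest readings were 25.7 on control mouse 1 and 49.0 on the first array of transgenic mouse 2.

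All 6 measured type II classical cadherins, of 10 members, had lower means in the transgenic mice, but for 5 of them the difference was small against its error. Cdh7, like Cdh22, passed the filter only through its control values, which favours a lower reading. Leave-outs took Cdh10 up to 0.20, Cdh7 up to 0.17 and Cdh11 up to 0.14, and within the untagged arrays Cdh8, Cdh9, Cdh10 and Cdh11 were at 0.19, 0.086, 0.28 and 0.18. Cdh22, described in rodents as the pituitary and brain cadherin, is the exception. It read 26.0, 41.1 and 15.97 in transgenic arrays and 61.9, 69.5 and 47.8 in control arrays, so every transgenic array was lower than every control array. Its mean log2 intensity was 4.69 ± 0.014 in transgenic and 5.90 ± 0.073 in control mice (SD, n = 2 each), so it passed the filter only through the control mice. The log2 difference was -1.21 (SE 0.15, 95% interval -1.61 to -0.81), a ratio of 0.43, with an adjusted p of 0.999 in limma. The small SD of the transgenic mice hides the spread between arrays, since the 2 arrays of transgenic mouse 2 gave 41.1 and 15.97 and their mean happens to lie near mouse 1. With the 6 arrays taken as separate samples the difference was -1.20 and its limma adjusted p was 1.00. Its 1 probe set is dim, and with the floor at the median intensity the difference was -0.73. Over the leave-outs of a mouse or an array it ran from -1.55 to -0.87. Within the re-LCM arrays it was -0.92 and within the others -1.85.

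Cdh9, which in mice joins granule cell axons and CA3 neurons at mossy fibre synapses, read 1038, 1066 and 1174 in transgenic and 1228, 1004 and 1219 in control arrays. The 2 groups overlapped, with a log2 difference of -0.11 (95% interval -0.54 to 0.31). Cdh8 (-0.15, SE 0.16), which marks subsets of cortical and hippocampal neurons, Cdh7 (-0.13, SE 0.19), Cdh11 (-0.013, SE 0.19), first known from bone-forming cells, and Cdh10 (-0.010, SE 0.21) differed by less than 1 standard error. Cdh8 had 3 passing probe sets, and the dimmest read 36.7 to 50.7 in transgenic and 67.4 to 87.5 in control arrays without overlap, while the other 2 overlapped. Cdh10 also had 3, all with overlap. Its dimmer probe sets gave -0.53 and -0.35, and the mean over probe sets gave -0.30. Cdh6, Cdh18, Cdh19 and Cdh20 did not pass the filter. Of these, Cdh6 (0.034), Cdh19 (0.72) and Cdh20 (0.087) had higher means in the transgenic mice. Cdh18 was under the floor on all 6 arrays, and Cdh19, a cadherin of Schwann cell precursors, was above it on 2 transgenic and 0 control arrays, at 24.8 and 12.1.

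Of the 5 other cadherins only Cdh13 was measured. Cdh13, or T-cadherin, has a lipid anchor in place of a tail. It read 70.4, 74.2 and 55.3 in transgenic arrays and 117, 75.6 and 66.9 in control arrays. The array of control mouse 1 stood highest and the other 5 overlapped. The log2 difference of -0.44 (SE 0.28) became -0.082 without control mouse 1, and the second passing probe set gave 0.18. Cdh23, which with Pcdh15 forms the tip links of inner ear hair cells, was just under the filter. It read 13.1, 23.7 and 33.0 in transgenic and 35.0, 38.4 and 39.8 in control arrays, which do not overlap, a log2 difference of -0.95 that with no filter gave a limma adjusted p of 0.884. Cdh16 of kidney, Cdh17 of intestine and Cdh26 were dim, with Cdh17 under the floor on every array.

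The delta-1 protocadherins have a long cytoplasmic tail that can bind protein phosphatase 1, and 3 of 4 were measured. Pcdh7 read 36.0, 27.2 and 22.1 in transgenic and 52.6, 43.2 and 40.5 in control arrays. All transgenic arrays lay under all control arrays, with a log2 difference of -0.66 (SE 0.26, 95% interval -1.34 to 0.018) and a ratio of 0.63. Its mean log2 intensity was 4.89 in transgenic and 5.55 in control mice, so it too passed the filter only through the control mice. Leave-outs took it from -0.94 without transgenic mouse 1 to -0.38 without transgenic mouse 2, and with the floor at the median intensity it was -0.41. A dimmer Pcdh7 probe set, under the filter, overlapped between groups with 15.7 to 22.9 in transgenic and 9.26 to 23.4 in control arrays. Pcdh9 read 1594, 1559 and 1822 in transgenic and 1911, 1485 and 1757 in control arrays, with overlap and a log2 difference of -0.10 (95% interval -0.55 to 0.35). The X-linked Pcdh11x differed by -0.36 (SE 0.29) and by -0.017 without control mouse 1. Pcdh1 did not pass the filter, at 12.4 to 27.5 in transgenic and 15.9 to 19.4 in control arrays.

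Of the delta-2 protocadherins, which have been tied to the actin-regulating WAVE complex, 4 of 5 were measured. Pcdh8, whose rat form arcadlin is induced by activity and takes N-cadherin off the synaptic surface, was bright on every array. It read 9189, 8779 and 7999 in transgenic and 8177, 9195 and 8981 in control arrays. These overlapped throughout, with a log2 difference of 0.026 (95% interval -0.40 to 0.46). The probe set is of the kind whose probes can match other transcripts, but the second Pcdh8 probe set overlapped as well, at 2223 to 3114 in transgenic and 2463 to 2978 in control arrays. Pcdh17, which takes part in presynaptic assembly, read 2039 to 2225 in transgenic and 2020 to 2420 in control arrays (-0.087, SE 0.16). Pcdh19, an X-linked gene whose human mutations cause epilepsy mainly in females, had 1125 to 1258 in transgenic and 988 to 1203 in control arrays (0.13, SE 0.17). Its other 2 passing probe sets gave -0.079 and -0.35, and the mean over all 3 was -0.10. Pcdh10, which acts in synapse elimination, differed by -0.47 (SE 0.31), and by -0.11 without control mouse 1, where it read 190 against 89.7 to 143 on the other arrays. Pcdh18 was dim.

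Of the 3 other non-clustered protocadherins, Pcdh20 was measured and Pcdh12, an endothelial gene, and Pcdh15 were dim. Pcdh20 was the steadiest member, at 2307, 2466 and 2448 in transgenic and 2496, 2523 and 2453 in control arrays. The log2 difference was -0.066 (95% interval -0.47 to 0.34), and the array of transgenic mouse 1 was the lowest. The second probe set read 169 to 286 in transgenic and 164 to 300 in control arrays. In the RefSeq order of chromosome 14, Pcdh8, Pcdh17, Pcdh20 and Pcdh9 follow each other with 1, 2 and 0 protein-coding genes between them. All 4 passed the filter, and their groups overlapped.

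**Figure D2:**
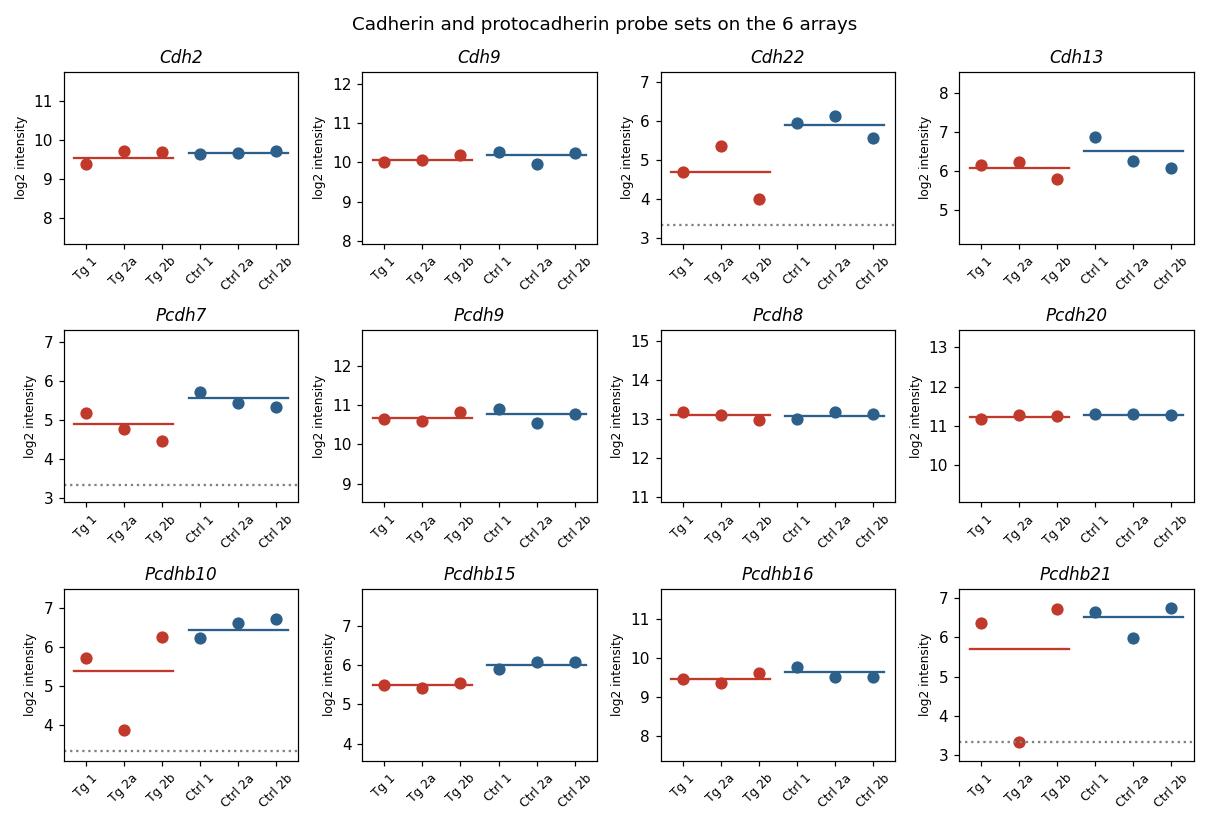
Log2 intensity on each array of the 12 members named by the rule in the methods, transgenic arrays (Tg, red) left of control arrays (Ctrl, blue), with the mouse number and a or b for the arrays of mouse 2. Lines are group means over mice, every panel spans 4.4 log2 units and the dotted line is the floor. Cdh22, Pcdh7 and Pcdhb15 show no overlap, and the low transgenic means of Pcdhb10 and Pcdhb21 rest largely on the first array of transgenic mouse 2.

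The beta protocadherins, single-exon genes that lie in a row on chromosome 18, had a probe set for all 22 genes, and 12 passed the filter. In the order of the cluster, 4 of the first 11 genes and 8 of the last 11 passed. The genes are close copies of each other, so probes for one may also catch another. Pcdhb16 read 698, 657 and 774 in transgenic and 868, 732 and 729 in control arrays, with overlap and a log2 difference of -0.17 (95% interval -0.62 to 0.27). Pcdhb9 had 608 to 717 in transgenic and 630 to 673 in control arrays. Neither gene separated the groups.

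Pcdhb15 read 45.3, 42.8 and 46.9 in transgenic and 60.1, 68.3 and 67.6 in control arrays. Every transgenic array was lower than every control array, with a log2 difference of -0.50 (SE 0.16, 95% interval -0.93 to -0.081) and a ratio of 0.71. Leave-outs ran from -0.59 to -0.41, and the value was -0.45 within the re-LCM arrays and -0.53 within the others. Its probe set is annotated by its suffix as shared between transcripts, and its other probe set was dim, at 0.762 to 14.9 in transgenic and 4.14 to 15.7 in control arrays. Whether another beta gene contributes to the signal was not tested.

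Pcdhb10 and Pcdhb21 differed mostly on 1 array. Pcdhb10 read 52.6, 14.5 and 76.3 in transgenic and 74.9, 96.9 and 104 in control arrays, a log2 difference of -1.05 (SE 0.30), which was -0.45 without the first array of transgenic mouse 2. Pcdhb21 read 82.2, 1.96 and 106 in transgenic and 101, 62.9 and 108 in control arrays, a difference of -0.82 (SE 0.47). Without the first array of transgenic mouse 2 it was 0.028. The other 9 measured beta genes differed by -0.22 (Pcdhb3) to 0.15 (Pcdhb12), all with intervals that span 0. Of the 10 beta genes that did not pass, Pcdhb8 was under the floor on all 6 arrays, and the highest intensity was 47.1, for Pcdhb13 on control mouse 1. The 1 gamma gene, Pcdhgc4, read 4.80 to 14.6 in transgenic and 2.58 to 24.8 in control arrays.

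**Figure D3:**
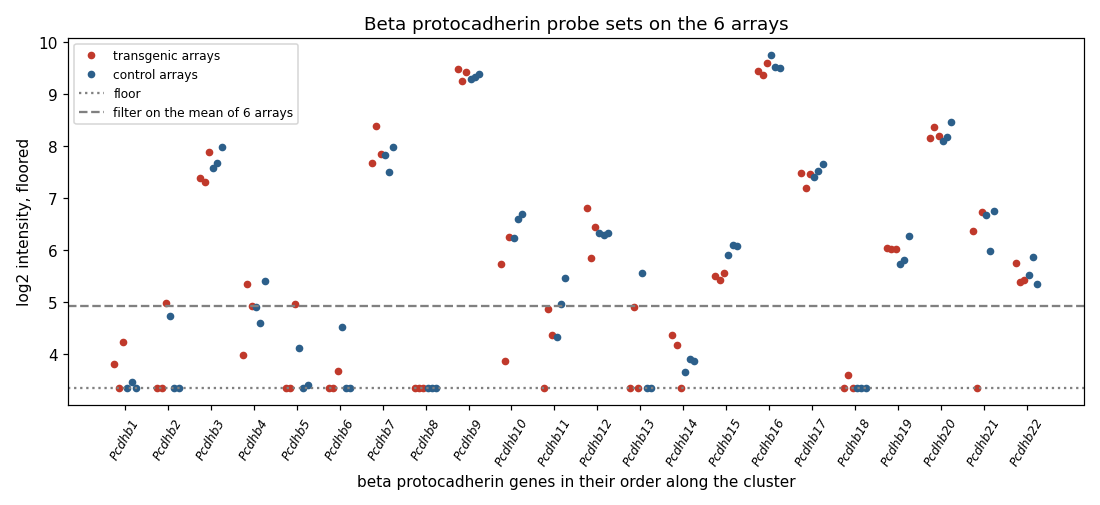
Log2 intensity of the 22 beta protocadherin probe sets on the 3 transgenic (red, left in each set) and 3 control arrays (blue), with genes in their order along the cluster. The dotted line is the floor and the dashed line the filter on the mean of 6 arrays, which 12 of the 22 genes passed, 8 of them among the last 11.

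The first array of transgenic mouse 2 had the lowest value for 8 of the 12 measured beta genes, against 18.6% of all genes tested. The mean deviation of the 12 genes from their own mean over the arrays was -0.49 log2 units there (median -0.22), and between 0.018 and 0.24 on the other 5 arrays. The second array of control mouse 2 lay as far the other way by the median, at 0.22, and was highest for 6 of the 12, against 16.2% of all genes tested. The title of the first array of transgenic mouse 2 carries the word block beside the tag. That array had the highest intensity of Ttr, a choroid plexus gene, at 17436. Ttr was also high on control mouse 1, at 11996, and between 178 and 1118 on the other 4 arrays. The rest of the choroid plexus list was mixed. Kl and Aqp1, both dim, were highest on the first array of transgenic mouse 2, at 34.7 and 39.6. Clic6 and the dim Folr1 read 56.5 and 18.7 there and were highest on the first array of control mouse 2, at 118 and 35.6. What part the handling behind the word block or choroid plexus RNA had in the beta values was not tested. Without the first array of transgenic mouse 2 the beta genes had 7 lower and 5 higher and a median of -0.021.

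Control mouse 1 gave the top reading for 9 of the 18 measured members other than beta protocadherins, among them Cdh13, Pcdh7, Pcdh10 and Pcdh11x, against 14.03% of all genes tested. Their mean deviation there was 0.25 log2 units, and -0.15 to 0.043 on the other arrays. The mean deviations of 6 lists of markers of other cell types were highest on the same array. The margin was small for the vascular list, which stood at 0.33 on the first array of control mouse 2. It was small for the pyramidal cell list too, which stood at 0.13 on transgenic mouse 1. The 9 tested oligodendrocyte markers, of 12 listed and 11 with a probe set, stood 0.92 above their mean there and -0.50 to 0.00023 elsewhere, and the summed intensity of all 11 was 5690 to 8366 in transgenic and 4911 to 12444 in control arrays. The 9 tested astrocyte markers of 10 stood at 0.44, with sums over all 10 of 8802 to 12239 in transgenic and 10072 to 15245 in control arrays. The 6 tested vascular markers of 10 stood at 0.35, with sums over all 10 of 337 to 400 in transgenic and 407 to 551 in control arrays, and Pecam1 was under the floor on every array. The 7 tested microglia markers of 10 stood at 0.30, with sums over all 10 of 3061 to 3812 in transgenic and 3277 to 4588 in control arrays. The highest microglia sum was on the first array of control mouse 2, where the mean deviation was 0.20, and control mouse 1 had 4370. The 9 tested interneuron markers of 11 stood at 0.44, with sums over the 10 with a probe set of 3444 to 3797 in transgenic and 2986 to 3651 in control arrays, and the 5 tested pyramidal cell markers of 8 at 0.18, with sums over the 7 with a probe set of 284 to 420 in transgenic and 292 to 488 in control arrays. Of the oligodendrocyte markers 9 of 9 and of the microglia markers 7 of 7 had lower means in the transgenic mice. So did 7 of 9 astrocyte, 5 of 6 vascular, 7 of 9 interneuron and 4 of 5 pyramidal cell markers, with 0 called in each list. Except for Pecam1, no marker of these 6 lists was under the floor on all arrays. What part these cells had in the member values was not tested.

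**Figure D4:**
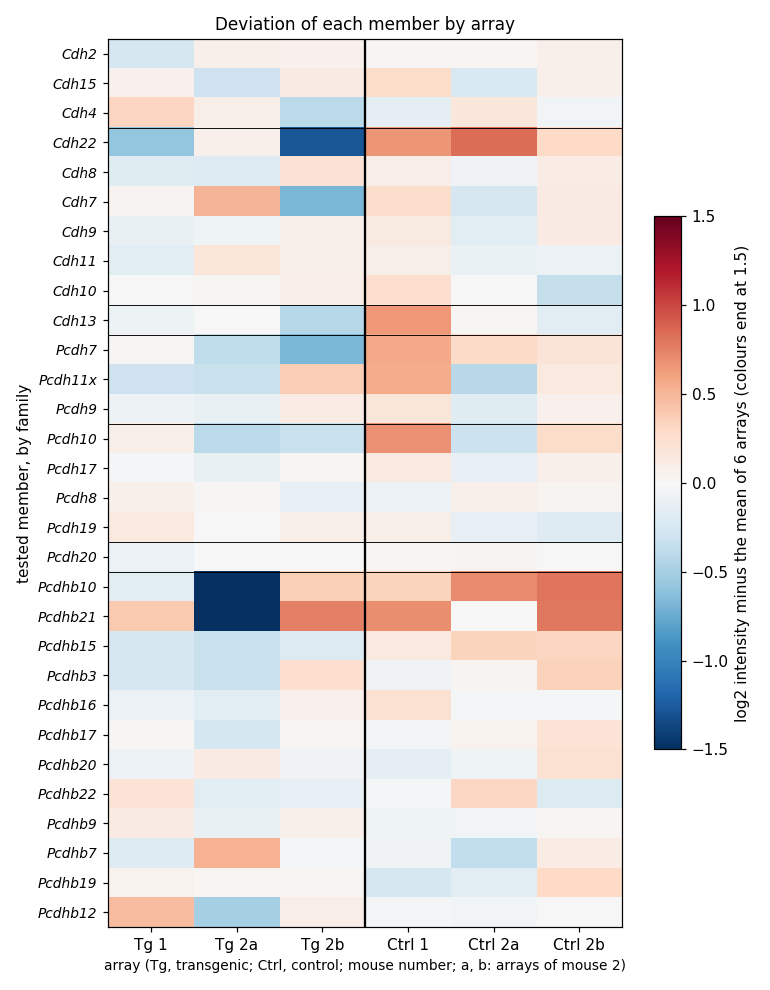
Log2 intensity of each of the 30 tested members on each array, minus its mean over the 6 arrays, with transgenic arrays left and control arrays right of the vertical line and families between horizontal lines. Red is above and blue below the mean, with colours ending at 1.5 log2 units. The first array of transgenic mouse 2 (Tg 2a) is lowest for 8 of the 12 beta genes, and control mouse 1 (Ctrl 1) is highest for 9 of the other 18.

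The SD over the 6 arrays had a median of 0.20 log2 units over the 30 tested members and of 0.26 over all genes tested. The 2 arrays of transgenic mouse 2 differed by a median of 0.23 and those of control mouse 2 by 0.20, against 0.30 and 0.28 over all genes. The 2 transgenic mice differed by a median of 0.15 (all genes 0.22) and the 2 control mice by 0.22 (all genes 0.21). The difference between the groups had a median size of 0.13, against 0.15 over all genes. Of the 30 tested members 13 had more than 1 passing probe set, and for 5 of these (Cdh4, Cdh13, Pcdh10, Pcdh19 and Pcdh20) the probe sets gave opposite signs.

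Genes that work with cadherins gave 0 calls in limma in either direction in each of 5 lists. Of the 9 catenins and related armadillo proteins 7 were measured, 6 lower and 1 higher, with a median of -0.11. Ctnnb1, or beta-catenin, which links classical cadherins to alpha-catenin and also carries Wnt signals, read 6037, 5605 and 6346 in transgenic and 6363, 6785 and 6684 in control arrays. The log2 difference was -0.13 (SE 0.15). Ctnnb1, Ctnna1 and Pkp4 (-0.057) were the 3 of the 7 whose arrays did not overlap, all lower in transgenic arrays. Each of the 3 differed by less than 1 standard error. Of all genes tested 8.07% did not overlap, 4.22% lower and 3.86% higher. Arvcf differed by 0.51 (SE 0.29), Ctnnd1, or p120-catenin, which keeps cadherins at the surface, by -0.21 (SE 0.16) and Ctnna1, or alpha-catenin, by -0.15 (SE 0.16). Of 18 further genes of the cadherin superfamily 10 were measured, 5 lower and 5 higher, with a median of 0.090. Celsr3, an atypical cadherin, needed for axon tracts, differed by 0.57 (SE 0.20), the synaptic calsyntenin Clstn3 by 0.49 (SE 0.23) and the giant cadherin Fat3 by -0.30 (SE 0.18). Clstn3 and Clstn1, 2 of the 10, did not overlap and were higher on the transgenic arrays, against the same 8.07% of all genes.

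Of 8 proteases and secretase subunits that cleave cadherins 6 were measured, 3 lower and 3 higher (median 0.052), with Psen2 at 0.31, Psenen at 0.20 and Adam10, which sheds N-cadherin, at 0.11. Of 11 intracellular partners of protocadherins 8 were measured, 4 lower and 4 higher (median -0.0048). The kinase Fyn read 554, 609 and 563 in transgenic and 846, 705 and 690 in control arrays without overlap, a log2 difference of -0.43 (SE 0.18). Abi1 and Nckap1, both of the WAVE complex, differed by 0.076 and 0.070. All 11 genes of protocadherin promoter choice, such as the insulator protein Ctcf and cohesin, were measured, 5 lower and 6 higher (median 0.0083). The DNA methyltransferase Dnmt3b differed by 0.38 (SE 0.17), and the cohesin regulators Wapl and Nipbl by 0.14 and -0.13. The arrays of these 3 genes of the 11, and of Fyn alone among the 8, did not overlap, against 8.07% of all genes tested.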

How the data were processed

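RNA from hippocampal DGCs was hybridised to 6 Affymetrix mouse arrays, from 2 transgenic and 2 control mice by the labels' descriptions. The authors deposited 1 intensity per probe set on a linear scale. The sources used here do not give their software or scaling. The 2% trimmed mean was equal on all arrays, so this scaling was kept. Of 45101 probe sets, 64 controls were left out. Gene symbols came from the platform annotation: 34945 probe sets had 1 symbol, 932 several and 9160 none. Intensities under the pooled 25th percentile were raised to it, then put on the log2 scale. Probe sets with a mean above the median were kept, 1 for each gene (highest mean), and the arrays of mouse 2 were averaged. limma 3.58.1 in R 4.3.3 was fitted to 14678 genes and unnamed probe sets, adjusted by Benjamini-Hochberg and called under 0.05, and checked on simulated data. Named members were the brightest of each family, those with arrays that did not overlap and a difference of at least 0.5, the 5 of smallest p, and Cdh2 and Cdh22. Partner genes were the 3 of smallest p in each list, and Ctnnb1, Pkp4 and Clstn1 were chosen after their values were seen. The members and lists were chosen with earlier results of these data known. The alternatives were another normalization, floor, filter, probe set rule, variance model or sample unit, the re-LCM tag, a replicate block and leaving out mice or arrays.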

Additional observations from a re-analysis of the deposited data

How the results depend on the processing

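No member was called in any of the tested alternatives, and the count over all genes was 0 except with a variance trend and robust variance, where it was 1. The replicate block, which pairs mice by number, also called 0 members (Cdh22 at -1.21). Deviations of same-numbered mice correlated at 0.033 across genes. This value cannot exclude shared handling of same-numbered mice, and the sources used here do not give litters. Among the named members, the sign turned within the untagged arrays for Cdh2 (0.010), Pcdhb16 (0.084), Pcdh9 (0.17), Pcdh8 (-0.18), Cdh9 (0.086) and Pcdhb21 (0.36). It turned for Pcdh20 with the mean over probe sets (0.077), for Pcdh9 with mouse as a random term (0.00030), and for Pcdh8 with 6 separate arrays (-0.022), a random term (-0.063) and the tag as a term (-0.024). Leaving out a mouse or an array gave -0.22 to 0.021 for Pcdh9, -0.050 to 0.10 for Pcdh8, -0.29 to 0.032 for Cdh2 and -1.67 to 0.028 for Pcdhb21; the cause was not tested. Genes at an unadjusted p under 0.05 numbered 632, against 1770 with a random term, 1802 with no filter, 990 without control mouse 2 and 1062 without transgenic mouse 2. The random term had an estimated correlation of -0.54 between arrays of 1 mouse.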

Other observations

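The alpha protocadherins share their last exons, and 6 probe sets carry several of their symbols, so they were not counted among the members. The brightest read 1442, 1856 and 1628 in transgenic and 1897, 1433 and 1782 in control arrays, a log2 difference of -0.14. The other 2 above the filter differed by -0.047 and -0.074, and the groups overlapped for all 6.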
